A study of Mus musculus with 14 samples.

Results

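Total RNA was followed through the chase of a SLAM-seq experiment in mouse E14 embryonic stem cells, an established line, in a WT line and a Mettl3-KO line. The slope of each gene's total RNA on hours of chase was fitted in 12 of the 14 libraries of the series, leaving out the 2 libraries with under 1000000 counts. These 12 are 5 WT libraries (1 each at 0, 1 and 3 h and 2 at 8 h) and 7 Mettl3-KO libraries (2 each at 0, 1 and 8 h and 1 at 3 h). Of 36335 named entries, 14919 had 10 or more counts in 5 or more of the 12 libraries and were tested. Cells of both lines had been paused for 2 weeks in FBS/LIF medium on gelatin by INK128 at 200 nM, which blocks mTOR kinase activity. They took up S4U, a thiolated uridine, at 100 µM for 12 h with fresh medium every 3 h. They were collected 0, 1, 3 or 8 h after a change to medium without S4U. The labels do not say whether INK128 stayed in the chase medium, how the Mettl3-KO line was made or whether it is 1 clone. They also do not say whether replicates were separate cultures, and the p-values given here reflect spread among these libraries that may be technical. There is no arm in which the medium was changed without removing S4U, so the 2 cannot be told apart from each other or from time itself.

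In a chase, the loss of old, labelled RNA is read against the total RNA of the same gene, and the reading is simple where that total stands still. Total RNA is the balance of synthesis and decay, and both can move when cells get fresh medium. The mTOR kinase couples nutrients and growth factors to the making of ribosomes, proteins, lipids and nucleotides, and when it is inhibited, lysosome and autophagy genes are commonly switched on through TFE factors. METTL3 is the catalytic subunit of the enzyme that places m6A, a mark that shortens the life of many mRNAs. All values are CPM, in which a gene's counts are set against the total of its library, scaled between libraries by TMM, so they give a gene's share of the RNA in a library. No spike-in is named in the labels, and a change in RNA per cell would not be seen. Fewer cells of a type and less RNA per cell cannot be told apart in bulk RNA.

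The 12 libraries held 6108570 to 26656352 counts, and the 2 left out held 49159 and 602485. Mettl3 RNA was at 43.6, 80.5, 56.2, 32.5 and 24 CPM in the WT libraries in order of chase time and at 1.26 to 2.45 CPM in the 7 Mettl3-KO libraries. The pluripotency genes Sox2 and Pou5f1 were present in all 12, at 958 to 2140 and 35.5 to 95.4 CPM. The first principal component (49.9% of the variance) separated the lines, the second (11.7%) set WT 8 h replicate 2 apart from the other 11, and the third (8.25%) had both Mettl3-KO 8 h libraries and WT 1 h replicate 1 far to one side. The Mettl3-KO 8 h libraries resembled each other more than other replicates did: the SD of their log2 difference across genes was 0.25, against 0.52 at 0 h, 0.63 at 1 h and 0.66 for WT at 8 h. In the labels, the source name of Mettl3-KO 8 h replicate 1 reads E15 and that of replicate 2 reads E16, where all others read E14, although the cell line field reads E14 for every sample. The counts of genes called in Mettl3-KO and for the slope difference are therefore also given without these libraries. For gene lists and single genes this is done only in part.

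Over both lines together no gene's slope passed the threshold of an adjusted p under 0.05 (0 of 14919, 0%, edgeR quasi-likelihood test). At an unadjusted p under 0.05 there were 1927 genes, the smallest adjusted p was 0.0658, and DESeq2 called 231 genes, 89 higher and 142 lower. The edgeR count was 26 without WT 0 h replicate 1 and 16 without WT 8 h replicate 1. Among the genes with the smallest p, those with positive slopes included Tfrc, the transferrin receptor that brings iron into cells, Farsb, a subunit of phenylalanyl-tRNA synthetase, and Lrpprc, which stabilises mitochondrial mRNAs. In the Mettl3-KO libraries Tfrc was at 104 and 118 CPM at 0 h, 101 and 98.8 at 1 h, 207 at 3 h and 269 and 256 at 8 h. In WT it was at 271, 251 and 302 CPM at 0, 1 and 3 h and at 350 and 416 at 8 h. In each line both 8 h libraries were above all earlier ones. The fitted change of Tfrc over 8 h was 1.02 ± 0.19 (SE) on the log2 scale, with an adjusted p of 0.0658 by edgeR. Lrpprc was at 249, 322 and 275 CPM in the earlier WT libraries and at 540 and 591 at 8 h, a fitted change over both lines of 1.16 ± 0.21.

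Genes with the smallest p and negative slopes included Hbp1, a repressor of growth genes, Spp1, the secreted protein osteopontin, and mt-Tl1, a transfer RNA of the mitochondrial genome. Hbp1 stood at 94.1 and 76.3 CPM at 0 h, 82 and 63.1 at 1 h, 22.5 at 3 h and, at the end of the chase in Mettl3-KO, 22.1 and 25.7. In WT it was at 123, 136, 95.5, 78 and 71 CPM in order of time. The 3 h and 8 h libraries of each line were thus below the 0 h and 1 h libraries of that line. The fitted change of Hbp1 was -1.39 ± 0.27 (SE) over both lines. Bbc3, which encodes the pro-death protein PUMA, had -1.43 ± 0.30, with 60.9 to 91.3 CPM in 3 of the 4 earliest Mettl3-KO libraries, 41.8 in the other, and 18.8 to 21.3 from 3 h on. Chase time as a factor also gave no call: 0 genes at 1 h, 0 at 3 h and 0 at 8 h against 0 h by edgeR, with 289, 419 and 1278 at an unadjusted p under 0.05 and 0, 0 and 33 by DESeq2. A joint test of the 3 times called 0 genes (768 unadjusted, 42 by DESeq2).

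In WT alone no gene passed (0 of 14919, 0%), with 919 at an unadjusted p under 0.05 and 46 by DESeq2, of which 45 were lower. The smallest adjusted p was 0.112, for Senp3, a SUMO protease, at 67, 72.4, 37.5, 14.1 and 17.2 CPM in order of time. The smallest p among positive slopes belonged to Lrpprc, Drosha, the nuclease that starts microRNA processing, and Supt3, a subunit of the SAGA coactivator. Supt3 was at 10.4, 10.5 and 7.37 CPM and then at 31.5 and 26.4 at 8 h, and Drosha at 175, 154 and 183 and then at 309 and 318. WT has 1 library at each of 0, 1 and 3 h, and the count was 69 without WT 0 h replicate 1 and 157 without WT 8 h replicate 1, most of them lower. The p53 targets are genes that the tumour suppressor p53 switches on, and 22 of the 23 tested had a WT slope below 0. Their median fitted change was -0.74 in WT, against -0.00 for all genes, and 14 had an unadjusted p under 0.05, but 0 passed the adjusted threshold. Mdm2, whose product degrades p53, was at 273, 251 and 194 CPM at 0, 1 and 3 h and at 152 and 124 at 8 h in WT. Phlda3, an inhibitor of AKT, was at 101, 105 and 89.2 CPM and then at 49.8 and 48.9, and Ccng1, a cyclin induced by p53, went from 158, 111 and 136 CPM to 77.9 and 69.7. Cdkn1a, the cell cycle inhibitor p21, was at 87.4, 154 and 142 CPM and then at 55.1 and 60.5. For all 4 genes, picked after their values were seen, both WT 8 h libraries lay below the 3 earlier ones. In Mettl3-KO the same 23 genes had a median of -0.04 and 11 had a slope above 0, and Cdkn1a was at 97.5 to 149 CPM at 0 and 1 h and at 190 and 215 at 8 h. By the edgeR test of the slope difference 0 of the 23 passed, and 8 had a higher slope in Mettl3-KO at an unadjusted p under 0.05.

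In Mettl3-KO alone 890 of 14919 genes (5.97%) had a slope past the threshold. Total RNA rose over the chase for 485 genes (3.25% of those tested) and fell for 405 (2.71%), with 3570 genes at an unadjusted p under 0.05. With all 14 libraries, the shallow ones included, the count was 0 (1111 unadjusted). The median fitted change over 8 h was 1.03 on the log2 scale for the genes that rose and -1.37 for those that fell. The median level in Mettl3-KO was 70.1 CPM for genes that rose, 15.3 for those that fell and 16.9 for those not called. Counts of calls in the gene lists below were not compared with genes of like level. Scaling by total count alone, without TMM, moved the median of all genes from -0.02 to -0.13 and turned the split into 292 higher and 559 lower, so that 34.3% and not 54.5% of the calls were higher. DESeq2 called 1547 genes, 733 higher and 814 lower, 889 of them shared.

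Among the genes that rose, Mthfd2 and Slc16a3 had the smallest p. Mthfd2, the mitochondrial folate enzyme that supplies carbon units for purine synthesis, was at 41.3 and 55.8 CPM at 0 h, 48.1 and 58.1 at 1 h, 68.2 at 3 h and 155 and 177 at 8 h. Its 8 h libraries were above all earlier ones, while WT lay within 27.4 to 44.1 CPM. The fitted change was 1.81 ± 0.20 (SE), with an adjusted p of 0.00169 by edgeR. Slc16a3, the lactate exporter MCT4, went from 11.4 and 18.2 CPM at 0 h through 14 and 17.9 at 1 h and 22.2 at 3 h to 55 and 56.3 at 8 h, a change of 1.97 ± 0.23 with the same adjusted p. Acot7, a thioesterase of fatty acyl-CoA, was at 30.3 and 61.6 CPM at 0 h and at 156 and 184 at 8 h. Hspbp1, a partner of Hsp70, went from 44.5 and 54.4 CPM to 145 and 174. In these genes too the 8 h libraries lay above every earlier Mettl3-KO library, and the fitted changes of Acot7 and Hspbp1 were 1.89 ± 0.25 and 1.83 ± 0.23.

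Among the genes that fell, Klhl24 and Zbtb20 had the smallest p. Klhl24, a substrate adaptor of a cullin ubiquitin ligase, was at 149 and 99.7 CPM at 0 h, 120 and 83.3 at 1 h, 36.9 at 3 h and 19.1 and 20.9 at 8 h. The fitted change was -2.65 ± 0.31 (SE), adjusted p 0.00169 by edgeR, and in WT Klhl24 stayed between 81.2 and 132 CPM. Zbtb20, a zinc finger repressor, stood at 79.1 and 54 CPM at 0 h, 44.3 and 37.8 at 1 h, 31 at 3 h and 13.1 and 12.3 at 8 h, a change of -2.24 ± 0.27. Pdcd4, an inhibitor of the helicase eIF4A whose protein is degraded downstream of mTOR and S6 kinase, went from 81.4 and 66.3 CPM at 0 h to 42.5 at 3 h and 23.7 and 16.6 at 8 h. WT held Pdcd4 at 68.1 to 80.9 CPM, so at 0 h the lines overlapped and at 8 h they did not. Fbxo32, an F-box protein of a ubiquitin ligase, fell from 11.5 to 15.1 CPM at 0 and 1 h to 2.76 at 3 h and 1.66 and 1.82 at 8 h (-3.08 ± 0.47). Pink1, the kinase that marks damaged mitochondria, fell from 22.9 to 34.6 CPM in the 5 earlier libraries to 8.04 and 9.24. Reads at Mir6516, a microRNA gene on chromosome 11, and Gm24507, a small nucleolar RNA gene on chromosome 13, also fell, by 1.82 and 2.03 on the log2 scale. On mm10 the RefSeq positions are chr6:83305704-83326011 for Mthfd2, chr11:120948484-120959000 for Slc16a3, chr16:20097553-20129226 for Klhl24, chr16:42875689-43634392 for Zbtb20, chr19:53892231-53937592 for Pdcd4, chr11:117077348-117077457 for Mir6516 and chr13:90098981-90099114 for Gm24507. The table does not separate a microRNA's arms or its hairpin from other RNA at the locus, and both entries are short genes in a library made from 3' ends of mRNA.

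**Figure D1:**
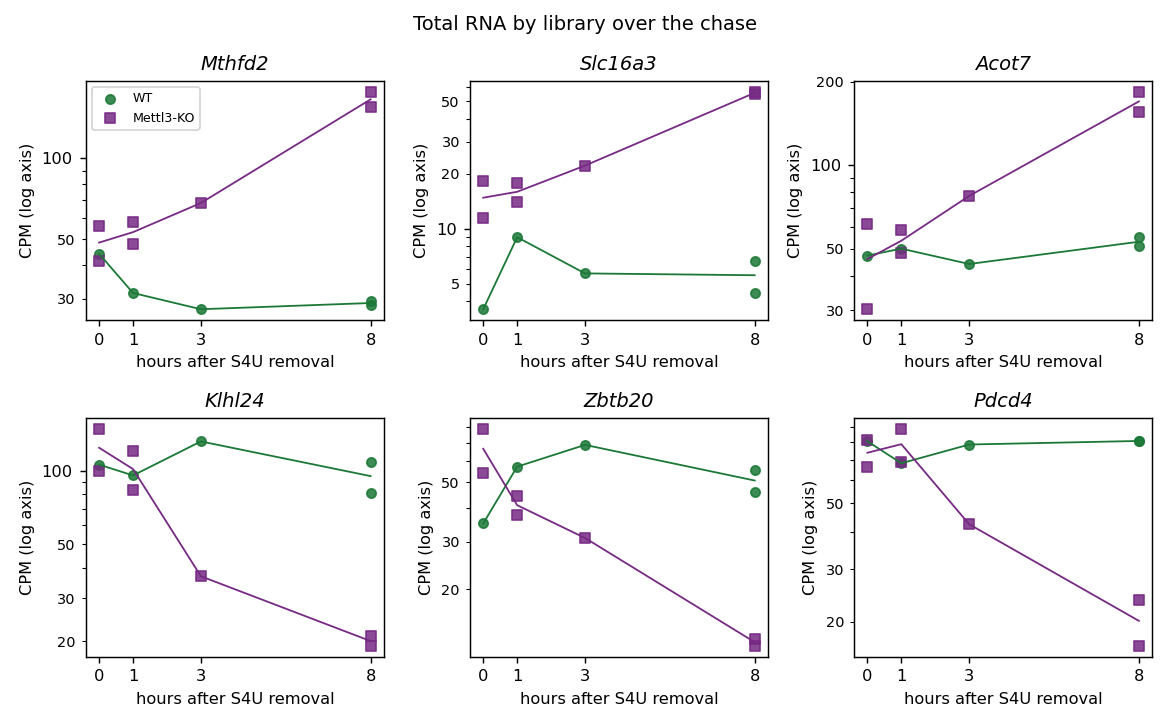
Total RNA in CPM (log axis) against hours after S4U removal for 6 genes, 1 point per library, with lines through the mean at each time. The Mettl3-KO squares of Mthfd2, Slc16a3 and Acot7 at 8 h lie above all earlier squares and those of Klhl24, Zbtb20 and Pdcd4 below. No gene at all passed the threshold in WT, so the lack of a call there does not set the lines apart. The test of the slope difference passed for Mthfd2, Acot7, Klhl24, Zbtb20 and Pdcd4.

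As a time course within Mettl3-KO, the genes called higher had a median change from 0 h of 0.04 at 1 h, 0.42 at 3 h and 1.01 at 8 h. The genes called lower had -0.15, -0.72 and -1.33, and all genes had -0.04, -0.04 and -0.01. These medians rest on the libraries that chose the genes and describe the order of change only. With time as a factor, edgeR called 0 genes at 1 h and 0 at 3 h (468 and 1033 at an unadjusted p under 0.05) and 83 at 8 h (0.556%), 32 higher and 51 lower. The 3 h value is a single library.

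How many genes are called depends on single libraries. Both 8 h libraries lay above all 5 earlier ones for 473 of the 485 genes that rose, where 15.1% of all genes have that order, and below them for 362 of the 405 that fell, where 12.2% do. The slopes that chose these genes come from the same libraries, so this order is largely set by the choice and is a description only. Without 8 h replicate 1 the count was 23, without 8 h replicate 2 it was 0 (1858 at an unadjusted p under 0.05), and without both it was 0 (789). Without 0 h replicate 1 or 1 h replicate 1 it was 214 and 237, and without 0 h replicate 2 or 1 h replicate 2 it was 1209 and 1462. No member of any gene list below was called without 8 h replicate 2. Without 8 h replicate 2 Mthfd2 had 1.69 (adjusted p 0.1), Slc16a3 1.93 (0.1), Klhl24 -2.81 (0.1) and Pdcd4 -1.8 (0.137) by edgeR. Over the 0, 1 and 3 h libraries alone the slope, set to the same 8 h, was 1.31 for Mthfd2, 1.58 for Slc16a3, -4.67 for Klhl24 and -2.13 for Pdcd4, with adjusted p of 0.703 to 0.989. Over those libraries 7 other named genes that rose had slopes below 0: Castor1, Bnip3, Upp1, Lef1, Pou3f1, Sox3 and Dnmt3a. Mettl3-KO libraries in the layout of WT, with 1 library at 0 h and 1 at 1 h, gave 2221, 860, 1076 or 0 genes by which replicates were kept.

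**Figure D2:**
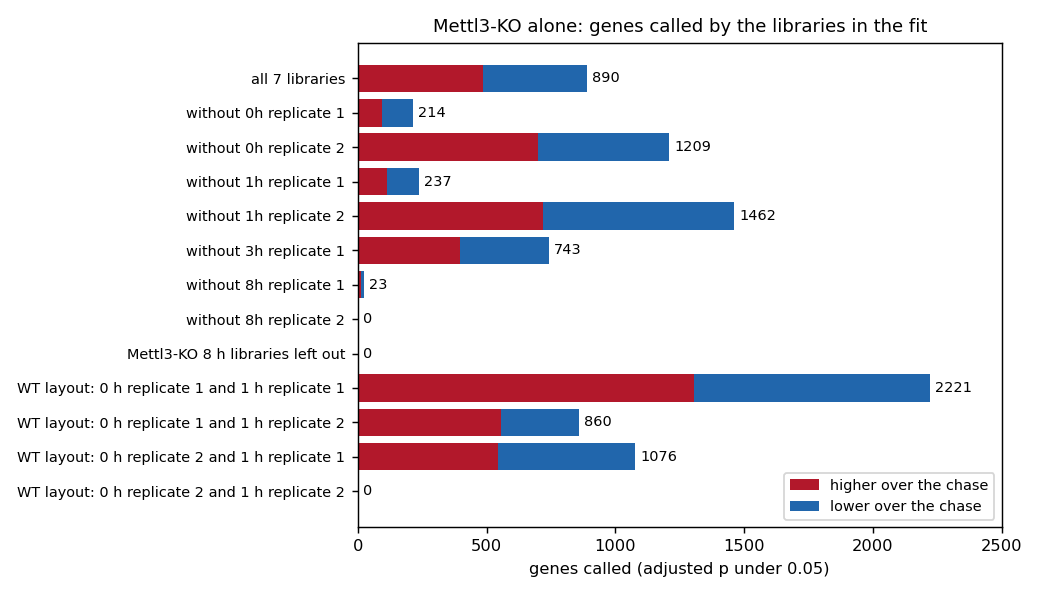
Number of genes called for a slope on hours in Mettl3-KO, in red higher and in blue lower, with all 7 libraries and with libraries left out. The bars run from 0 without 8 h replicate 2 to 2221 with 0 h replicate 1 and 1 h replicate 1 alone beside the 3 h and 8 h libraries.

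The genes called in Mettl3-KO were next read in WT. The 485 genes that rose in Mettl3-KO had a median of -0.04 in WT, with 46% above 0, and the 405 that fell had 0.09, with 40.7% below 0. Among all genes 49.5% were above 0 in WT. Across the 14919 genes, which are not independent, the slopes of the lines had a Pearson r of 0.03 and a Spearman rho of -0.02, and the lines share no library. The median standard error of the fitted change over all genes was 0.43 in WT and 0.30 in Mettl3-KO.

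**Figure D3:**
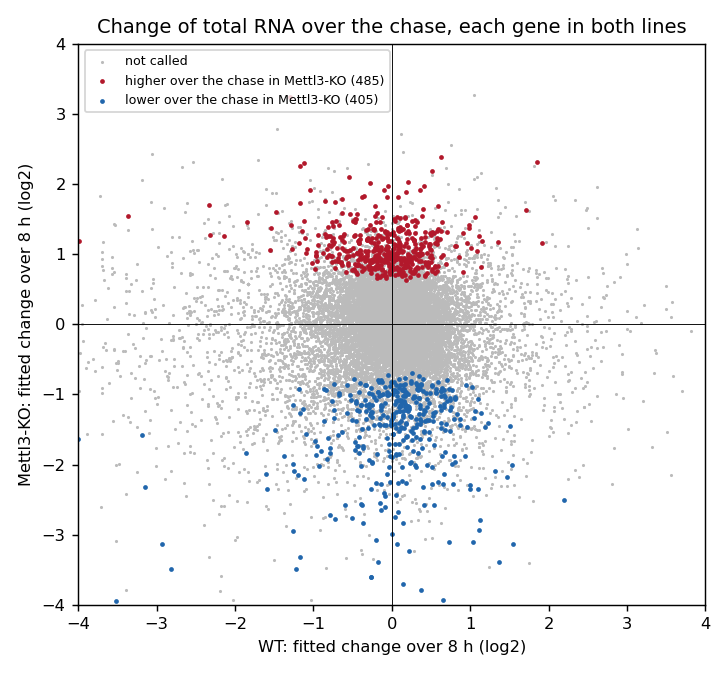
Fitted change of total RNA over 8 h (log2) in WT on the horizontal axis and in Mettl3-KO on the vertical axis, 1 point per gene, drawn from -4 to 4. The 485 red and 405 blue genes called in Mettl3-KO spread to both sides of 0 on the WT axis.

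The difference of slopes was tested itself, and 76 genes passed (0.509%), 38 with a higher slope in Mettl3-KO and 38 with a lower one (0.255% each). Of these, 33 and 34 were also called in Mettl3-KO alone, and in 37 and 37 the WT slope had the opposite sign. The genes were chosen for a large difference in the same libraries, so these counts are largely set by the choice and are a description only. Eif5a, the translation factor that carries hypusine, rose in Mettl3-KO from 508 and 778 CPM at 0 h to 1430 and 1730 at 8 h. In WT it was at 811, 1270 and 1010 CPM at 0, 1 and 3 h and at 520 and 455 at 8 h. The 8 h libraries thus lay at opposite ends in the lines, and the slope difference was 2.51 over 8 h, adjusted p 0.0183 by edgeR. Taf9, a subunit of TFIID, went from 15.3 and 11.8 to 36.4 and 35.8 CPM in Mettl3-KO and was at 12.3, 14.8, 8.4, 3.88 and 6.04 in WT. Cpt1a, which takes fatty acids into mitochondria for oxidation, fell in Mettl3-KO from 33 and 38.3 to 15.7 and 14.8 CPM and was at 89.2, 88.2, 102, 117 and 130 in WT. Ankhd1 and Nfatc4, a protein with ankyrin repeats and a calcium-regulated transcription factor, had differences of -2.01 and -2.76. The value at Rpl7-ps7, 2.14, is uncertain because a ribosomal protein pseudogene can share reads with its parent gene. The count was 0 without WT 1 h replicate 1, without WT 8 h replicate 2, without Mettl3-KO 8 h replicate 1 and without Mettl3-KO 8 h replicate 2. It was 288 without WT 0 h replicate 1, 129 without WT 8 h replicate 1, 124 without Mettl3-KO 0 h replicate 2, 36 without Mettl3-KO 0 h replicate 1, 23 without Mettl3-KO 1 h replicate 1 and 49 without WT 3 h replicate 1. With all 14 libraries it was 0. Without TMM 113 genes passed, 32 higher and 81 lower.

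Genes of sterol synthesis and uptake were among those that rose together in Mettl3-KO. These enzymes build cholesterol from acetyl-CoA and are switched on by SREBP factors when sterols are scarce or mTOR is active. Of 24 tested, 9 rose and 0 fell, 20 had a slope above 0, and the median was 0.66 against -0.02 for all genes. Of all genes tested 3.25% rose. In WT the median was -0.19 and 0 passed, with 1 higher and 1 lower at an unadjusted p under 0.05. Hmgcs1, which makes HMG-CoA, was at 148 and 159 CPM at 0 h, 136 and 147 at 1 h, 160 at 3 h and 244 and 264 at 8 h, a fitted change of 0.81 ± 0.18 (SE). Fdft1, Cyp51, Msmo1, Nsdhl, Hsd17b7 and Dhcr7, enzymes from squalene synthesis onwards, also rose, by 0.85 to 1.12. In all 9 both 8 h libraries were above the 5 earlier ones, as in 473 of the 485 genes that rose. Dhcr7, the last enzyme, also passed the test of the difference (2.62), with 9.22 and 17.1 CPM at 0 h and 27.5 and 27.6 at 8 h in Mettl3-KO and 10.1, 15.1, 11.7, 4.45 and 4.61 in WT. The number called was 1 without 0 h replicate 1, 0 without 1 h replicate 1 and 0 without either 8 h library.

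The promoters of these genes, from 250 bases before to 50 after a transcript start in RefSeq on GRCm38.p6, have a base sequence in common that the slopes did not use. All 16 tested members with a promoter in the table hold CCAAT or its reverse complement ATTGG, the box bound by NF-Y. Among the 10498 tested genes with a promoter 43.2% do, 42.1% of those that rose in Mettl3-KO and 47.4% of those that fell. One box of each of 4 genes that rose is shown in capitals, on the strand of the gene, and Hmgcs1, Hsd17b7 and Dhcr7 hold further boxes in the same promoter, some nearer the start. The windows are at chr13:119690294-119690322, chr5:4104710-4104738, chr1:169969262-169969290 and chr7:143830117-143830145.
Hmgcs1: tccccgcctctcATTGGctgaaagcggat
Cyp51: cgctgtccgccaCCAATctggtcctgaga
Hsd17b7: tgccgagtcgcgATTGGcgggcctaacgc
Dhcr7: tcactgccttcaCCAATcacaggacgcag
These matches are a description of the letters and not of binding. For some genes shown here and below, Dhcr7, Ldha, Bbc3 and Ctsa among them, the start used lies inside the gene's RefSeq span.

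Genes that make fatty acids also rose. Acaca, Fasn, Scd2 and Fads2, which make and desaturate fatty acids, rose, and Cpt1a, which burns them, fell, among 15 tested. Over all genes 3.25% rose and 2.71% fell. Scd2 went from 73.8 and 66.8 CPM at 0 h to 156 and 158 at 8 h, and in WT it was at 147, 171, 131, 136 and 113, and the slopes differed by 1.54 (adjusted p 0.0278 by edgeR). Fasn had slopes of like size in the lines, 0.77 ± 0.21 (SE) in Mettl3-KO and 0.58 ± 0.23 in WT, where it did not pass.

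Glycolysis and hypoxia genes had 9 of 24 tested members that rose and 0 that fell, with 21 slopes above 0 and a median of 0.57. The share that rose among all genes tested was 3.25%. In WT the median was -0.06 and 0 passed (0 unadjusted). Glycolysis splits glucose to pyruvate, and much of this list is known to be induced by HIF factors in low oxygen. Slc2a1, the glucose transporter GLUT1, was at 130 and 137 CPM at 0 h, 123 and 101 at 1 h, 160 at 3 h and 320 and 265 at 8 h. It rose by 1.28 ± 0.20 (SE) in Mettl3-KO, was at 219 to 316 CPM in WT, and the slopes differed by 1.49 (adjusted p 0.04 by edgeR). Along the pathway Pfkl, Aldoa, Tpi1, Pgam1, Pkm and Ldha rose, from 0.92 ± 0.26 for Pgam1 to 1.81 ± 0.26 for Tpi1, which went from 36.5 and 70.3 CPM at 0 h to 172 and 160 at 8 h. Aldoa and Pkm differed by more than 2-fold between the 0 h replicates, at 161 and 414 CPM and at 413 and 959. Bnip3, a mitophagy receptor, and Ankrd37, both known HIF targets, rose from 13 and 24 to 43.2 and 49.9 CPM and from 2.14 and 1.67 to 7.67 and 6.16 CPM. Over 0 to 3 h alone the slope of Bnip3 was negative, -0.70 set to 8 h. Members called were 5 without 0 h replicate 1, 5 without 1 h replicate 1 and 1 without 8 h replicate 1.

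Among the 23 members with a promoter, 9 (39.1%) hold ACGTGC or its reverse complement GCACGT, a form of the HIF element, against 9.76% of all tested genes and 13.5% of those that rose. It overlaps the E-box CACGTG wherever CACGTGC occurs. Of the 9 that rose, 5 hold it, and the windows of 3 are at chr4:119108697-119108726, chr7:46845757-46845786 and chr19:41911745-41911774, with the element in capitals.
Slc2a1: gtcccgccccggACGTGCtccccaggcccc
Ldha: acgtgggttcccGCACGTccgctgggctcc
Pgam1: cgctccttgcttACGTGCgctccgtgactg
The shares of all promoters holding it were 13.5% for genes that rose and 16.2% for genes that fell.

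Some protein folding and turnover genes rose in Mettl3-KO, where 3.25% of all genes tested did. Of 18 heat shock genes tested, 7 rose and 0 fell (median 0.69, WT -0.04), of 18 genes of the unfolded protein response 5 rose and 0 fell (median 0.64, WT -0.23), and of 26 proteasome genes 3 rose and 0 fell, with 24 slopes above 0. Hspb1, the small heat shock protein Hsp27, was at 96.9 and 131 CPM at 0 h, 114 and 194 at 1 h, 270 at 3 h and 318 and 464 at 8 h (1.69 ± 0.28, SE). Hspd1, Hspa4, Hsph1, Dnaja1, Ahsa1 and Chordc1, chaperones and cochaperones, rose by 0.66 to 1.22. In the endoplasmic reticulum Hspa5 (BiP), Hyou1, Pdia6 and Calr, which fold secreted proteins, and Xbp1, the factor that induces them, rose by 0.70 to 1.36. Calr was at 153 and 236 CPM at 0 h and at 498 and 519 at 8 h, with 279 to 359 in WT, and its slopes differed by 1.53 (adjusted p 0.0355 by edgeR). It was the 1 unfolded protein gene of 18 that passed the test of the slope difference, and 0 of the 18 heat shock genes did. Without 0 h replicate 1 the heat shock count was 1 and without 1 h replicate 1 it was 2, and both unfolded protein counts were 2.

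Lists of growth genes had fewer members that rose, where 3.25% of all genes tested did. In ribosome biogenesis 5 of 35 rose and 0 fell, with 29 slopes above 0 and a median of 0.43 (WT 0.04). By the test of the slope difference 0 of these 35 passed. Nop2, an rRNA methyltransferase, went from 282 and 293 CPM at 0 h through 531 at 3 h to 693 and 727 at 8 h (1.33 ± 0.22, SE), and Ncl, Heatr1, Nop16 and Bop1 rose by 0.73 to 1.31. Oxidative phosphorylation had 5 of 39 that rose (Ndufa8, Uqcrc1, Cyc1, Atp5d and Atp5g3), with 35 slopes above 0 and a median of 0.33 (WT -0.01). Of these Atp5g3 differed between lines, by 1.63, with 351 and 463 CPM at 0 h and 858 and 831 at 8 h in Mettl3-KO and 586, 584, 498, 458 and 336 in WT. In the list of pyrimidine and nucleoside genes 3 of 26 rose: Cad, which starts pyrimidine synthesis, Impdh1, of guanine nucleotides, and Upp1, which splits uridine. Upp1 was at 45 and 67.4 CPM at 0 h, 49.4 and 57.3 at 1 h, 52.1 at 3 h and 127 and 139 at 8 h. That rise came between 3 and 8 h, and from 0 to 3 h the slope was -0.285 set to 8 h. In the ATF4 list Mthfd2, Slc3a2 and Psat1 rose among 29 tested, with 24 slopes above 0, and in the G1/S list Ccne1, E2f2 and Tk1 among 35. Without TMM the G1/S list had 1 call higher and 1 lower and its median went from 0.09 to -0.02. With 3 calls each, the pyrimidine and G1/S lists are not shown to rise as a group. Without 0 h replicate 1 or without 1 h replicate 1, ribosome biogenesis had 1 call, oxidative phosphorylation 1 or 2, and the pyrimidine, ATF4 and G1/S lists 1 each.

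The list of mTORC1 regulators and TFE targets leaned the other way. Of 37 tested, 5 fell and 1 rose in Mettl3-KO, 6 had a slope above 0, and the median was -0.34, against 0.09 with 20 above 0 in WT. Among all genes tested 2.71% fell and 3.25% rose in Mettl3-KO. Fnip1, a partner of folliculin in nutrient sensing, was at 154 and 136 CPM at 0 h, 130 and 114 at 1 h, 54.4 at 3 h and 54.9 and 48.3 at 8 h (-1.47 ± 0.26, SE). Wipi1 and Map1lc3b, of autophagosome formation, fell by 1.74 and 0.93 on the log2 scale, and the lysosomal enzymes Hexa and Ctsl by 1.13 and 0.86. Hexa had 26 and 32.4 CPM at 0 h and 12.8 and 14.5 at 8 h in Mettl3-KO and 50.8, 47.4, 52.6, 62.4 and 87.4 in WT, and its slopes differed by -1.78 (adjusted p 0.0327 by edgeR). Castor1, the arginine sensor upstream of mTORC1, rose, from 18.3 and 23.9 CPM at 0 h through 16.7 at 3 h to 38.6 and 43.6 at 8 h. Ctsa, a lysosomal protease outside the list named after its values were seen, fell from 93.8 and 108 CPM to 45.3 and 40.9. The members that fell were 4 without 0 h replicate 1, 2 without 1 h replicate 1, 3 without 3 h replicate 1 and 0 without 8 h replicate 1. The E-box CACGTG, which TFE factors and MYC both bind, was in 8 of 32 promoters of the list (25%) and in 11.8% of all. It is shown in capitals for Fnip1 and Ctsa, whose promoter holds another, at chr11:54438092-54438121 and chr2:164833749-164833778.
Fnip1: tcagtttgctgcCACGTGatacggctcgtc
Ctsa: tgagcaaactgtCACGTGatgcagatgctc
Genes that rose held it in 14.5% of promoters and genes that fell in 15.8%.

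Among p53 targets 2 of 23 fell in Mettl3-KO, Bbc3 (-1.81 ± 0.41, SE) and Trp53inp1, a regulator of autophagy and cell death (-0.84 ± 0.23). Over all genes tested 2.71% fell, and with 2 calls the list is not shown to fall as a group. Trp53inp1 was at 267 and 180 CPM at 0 h, 164 and 227 at 1 h, 158 at 3 h and 110 and 133 at 8 h, and neither was called without 0 h replicate 1 or 1 h replicate 1. Bbc3, Hbp1, Klhl24, Fbxo32 and Pink1 are also known as targets of FOXO factors, which act when growth factor signals are low. The forkhead motif GTAAACA or its reverse complement TGTTTAC was in 5.67% of the promoters of genes that fell, 2.34% of those that rose and 3.12% of all. For genes that fell this was 14 of 247 promoters. The motif is shown in capitals for 2 of the 5 genes, Hbp1 and Bbc3, at chr12:31950377-31950405 and chr7:16310083-16310111.
Hbp1: caccttctccaGTAAACAcaagagaaaag
Bbc3: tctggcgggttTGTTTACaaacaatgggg
No FOXO list was tested, and these 5 genes were picked among genes that fell, after their values were seen. They do not show which way FOXO targets moved as a group.

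Pluripotency genes included 3 of 26 that fell and 0 that rose in Mettl3-KO, with 7 slopes above 0 and a median of -0.32 (WT -0.15). Of all genes tested 2.71% fell and 3.25% rose in Mettl3-KO. Klf4, a Krüppel-like factor of the naive state, was at 1320 and 1140 CPM at 0 h, 1270 and 1480 at 1 h, 488 at 3 h and 630 and 605 at 8 h (-1.12 ± 0.31, SE). Tbx3 went from 105 and 78.3 CPM at 0 h to 40.4 at 3 h and 35.2 and 39.3 at 8 h, and Tfcp2l1 from 178 and 159 to 86.4 and 86.2. All 3 are naive factors that LIF supports, and WT stayed within 661 to 1010 CPM for Klf4 and 337 to 505 for Tbx3. Nanog had -0.61 ± 0.21 and Prdm14 -1.18 ± 0.34, neither past the threshold. Of 14 primed epiblast genes tested, which mark the state after implantation, Pou3f1, Lef1, Sox3 and Dnmt3a rose and 0 fell. The median of the 14 was 0.06, near the -0.02 of all genes, so this list is not shown to rise as a group. Pou3f1 was at 219 and 196 CPM at 0 h, 133 and 159 at 1 h, 114 at 3 h and 363 and 458 at 8 h, so it was lowest at 3 h and highest at 8 h. Lef1 was at 7.41 to 9.25 CPM at 0 and 1 h, 4.64 at 3 h and 19.9 and 24.9 at 8 h. Over 0 to 3 h alone their slopes were negative, at -2.29 and -2.12 set to 8 h, and the list's median went from 0.06 to -0.05 without TMM. Each of the 2 lists had 1 or 2 calls without 0 h replicate 1 or without 1 h replicate 1.

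Signalling lists were split. In the LIF and STAT3 list Socs1 and Bcl3 rose and Klf4 and Tfcp2l1 fell, among 17. Of 24 BMP, TGF-beta and Nodal genes Smad1 and Id4 fell, and of 16 NF-kB and interferon genes Nfkbia and Icam1 fell and Ifitm3 rose. Nfkbia, the inhibitor of NF-kB, was at 151 to 215 CPM at 0 and 1 h and at 84.3 to 91.3 from 3 h on. Immediate early genes, which respond to serum within the first hour, had 2 of 25 that rose over 8 h, Jund and Fosl2, and 7 slopes above 0 in each line. Jund was at 52.1 to 67.1 CPM up to 3 h and at 117 and 133 at 8 h. Of 12 Wnt targets Lef1 and Cdx1 rose. Prdx1, Myl9 and Cdk1 were the 1 call higher among 22 antioxidant, 21 YAP and actin-SRF and 28 mitosis genes. Nr1d2, Dcp1b and Rbm39 were the 1 call lower among 16 clock, 32 mRNA decay and 20 splicing factor genes. One call in lists of these sizes is near the 3.25% higher and 2.71% lower over all genes, and the clock list had 10 slopes above 0 and a median of 0.55. Cdk1, the kinase of mitotic entry, also differed between lines by 1.80, at 196, 142, 168, 105 and 76.9 CPM in WT and from 147 and 163 to 235 and 255 in Mettl3-KO. Of 25 translation factors Eif5a and Eif5 rose.

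Several lists had no call in Mettl3-KO by edgeR. Cytosolic ribosomal proteins had 0 of 64, with a median of -0.04, 3 higher and 2 lower at an unadjusted p under 0.05 and 2 by DESeq2. Writers, readers and erasers of m6A had 0 of 19 (3 unadjusted, 1 by DESeq2), ERK feedback genes 0 of 12 (3 and 1), the MYC family with its partners 0 of 12 (4 and 0) and apoptosis genes 0 of 17 (2 and 0). Long noncoding RNAs and hosts of snoRNAs had 0 of 12 (2 and 0). A list without a call is not shown to stand still at this number of libraries.

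**Figure D4:**
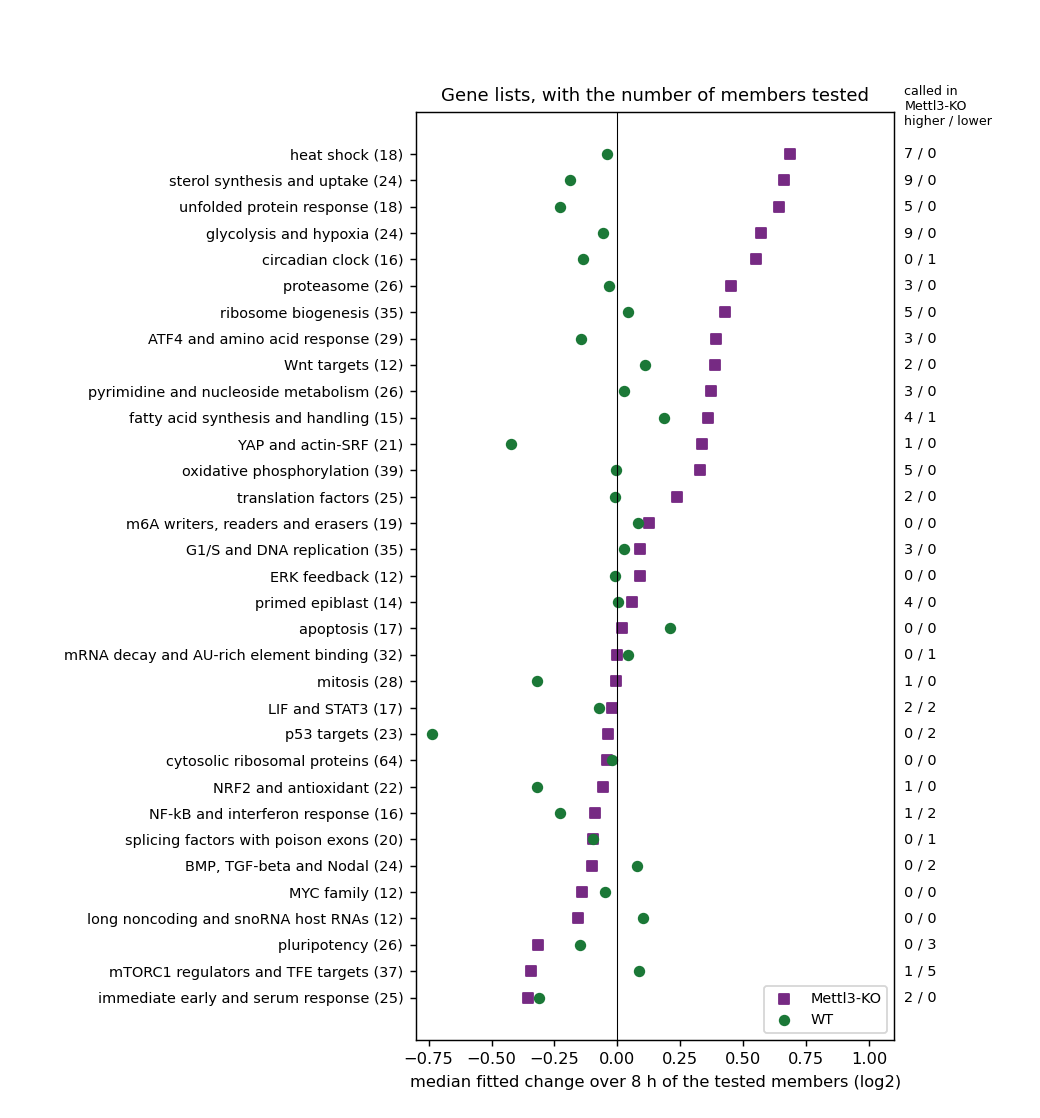
Median fitted change over 8 h (log2) of the tested members of each gene list in Mettl3-KO (squares) and WT (circles), with the number of members called higher and lower in Mettl3-KO at the right. Heat shock, sterol, unfolded protein and glycolysis genes lie highest in Mettl3-KO, at 0.57 to 0.69, with WT at -0.23 to -0.04. Without TMM the Mettl3-KO medians of ERK feedback, G1/S, primed epiblast and apoptosis genes turn from above 0 to below.

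Markers of cells outside the pluripotent state were followed beside these groups. In Mettl3-KO the summed level of 18 endoderm markers was 634 to 734 CPM from 0 to 3 h and 795 to 820 at 8 h, with Afp at 0 in all 12 libraries. Sums of neural markers were 478 to 764 and then 649 to 665 CPM, of trophoblast markers 127 to 149 and 137 to 146 with Elf5 at 0, of mesoderm markers 11.9 to 18 and 16 to 16.9, and of fibroblast markers 455 to 637 and 416 to 434. In the 2-cell-like set the sums were 1.2 to 2.19 and 2.37 to 3.33 CPM, with Zscan4f and Gm4340 at 0. WT had 1520 to 2170 CPM of endoderm markers from 0 to 3 h and 1250 to 1620 at 8 h, and 82.5 to 93.7 and 97.6 to 105 of neural markers. One of these markers was called in Mettl3-KO, Ascl2, from 4.27 to 8.45 CPM before 8 h to 10.6 and 13.7. The part of such cells in the slopes was not tested.

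The chase reads decay from labelled RNA, counted as T>C conversions, and a moving total enters that reading. For 11641 genes with enough label, the half-life, the hours in which label falls by 50%, was read from 1 slope over 0 to 8 h. It was computed in 2 ways, with label relative to all counts of the library and with label per total count of the same gene. In Mettl3-KO conversion counts were 26.1 and 26.6% of total counts at 0 h and 25.2 and 26.7% at 1 h. They were 18.5% at 3 h and 4.9 and 4.97% at 8 h. Little label was thus lost there in the first hour, and a half-life from 1 slope does not describe each part of the chase. Over the 12 libraries of both lines, label fell past the threshold for 96.9% of genes on the library scale and 98.1% on the other. In that fit the median half-life was 2 h on the first scale and 2.01 h on the second. For 246 genes (2.12% of 11611 with label falling on both scales) the 2 values differed by over 1.5 times. In Mettl3-KO alone 840 genes (7.29%) did. Among genes whose total rose there the medians were 3.29 and 2.31 h, and 39.4% differed by over 1.5 times, all longer on the library scale. Among genes whose total fell they were 1.63 and 2.28 h, and 30.8% did, all shorter. Both scales use the same libraries as the slopes, so this follows from how they are built and shows its size only.

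For single genes the scales gave different answers. Mthfd2 had a half-life of 3.17 h on the library scale and 1.86 h per own total in Mettl3-KO, and its total rose. For Acot7 and Slc16a3, whose totals also rose, the library-scale slopes of label were -0.053 ± 0.060 and -0.15 ± 0.085 (SE, log2 per h), too close to 0 to fix a half-life, while per own total the half-lives were 3.48 and 2.51 h. For genes that fell the order was reversed: 1.19 and 2.11 h for Klhl24, 1.5 and 2.58 h for Zbtb20, and 2.32 and 5.8 h for Pdcd4. Klf4 had 2.94 h on the library scale and 5.03 h per own total. Bax and Igf2bp3, whose totals had no called slope, gave 5.4 and 4.59 h and 2.3 and 2.16 h. Neither scale corrects for cell division, and the sources used here do not say if conversions were counted per read or per base.

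**Figure D5:**
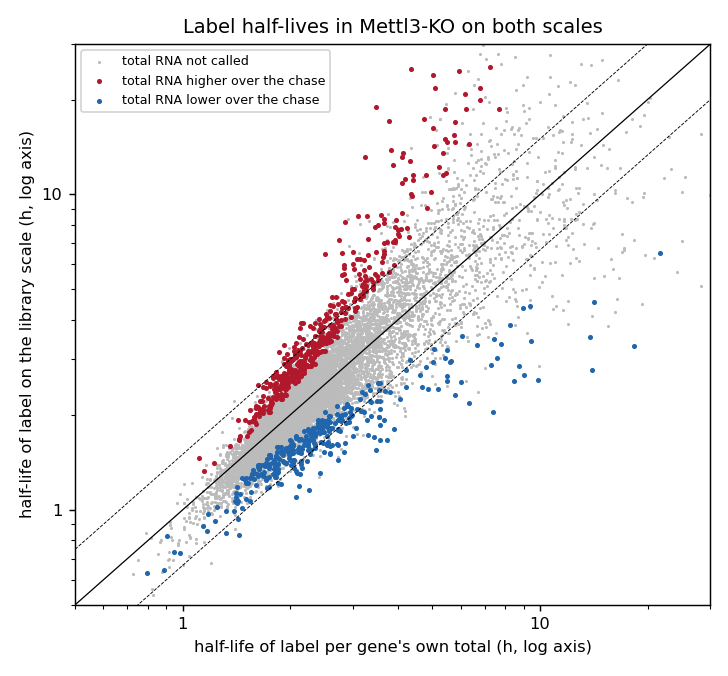
Half-life of label in Mettl3-KO in hours per gene's own total (horizontal) and on the library scale (vertical), both on log axes from 0.5 to 30, with dashed lines at 1.5 times in either direction. Genes whose total rose (red) lie above the diagonal and those whose total fell (blue) below it.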

How the data were processed

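SLAM-seq libraries were made with a 3'-end mRNA kit from 100 ng of RNA treated with 10 mM iodoacetamide, per the labels' protocols. The authors deposited raw total counts and raw T>C conversion counts per gene, and these 2 tables were used. Build mm10 and the tools edgeR 3.32.1, Subread 1.5.0 with featureCounts and Trim Galore 0.4.0 come from the submitters' processing notes. The sources used here do not give the aligner, the conversion caller or the use of strand. An entry without a gene name held 0.00707 to 0.0312% of counts and was left out.

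Slopes on hours were fitted with edgeR 4.0.16 in R 4.3.3 (TMM, robust quasi-likelihood, Benjamini-Hochberg over all 14919 genes, threshold 0.05) for both lines with genotype as a covariate, for each line alone, and with a genotype by hours term. A slope is given as the fitted log2 change over 8 h with its SE. Libraries held 6108570 to 26656352 total counts, and the SEs reflect the spread among libraries as well as this depth. Label was fitted over 11641 genes with 10 or more conversion counts in 5 or more libraries. Scripts were tested on simulated data. Alternatives were DESeq2 1.42.0, other scalings and count filters, log2(hours + 1), a replicate block, all 14 libraries, and leaving out libraries.

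The labels do not say whether same-numbered replicates pair. Correlations of the replicate differences between groups ran from -0.113 to 0.36 over 6 pairs, highest between Mettl3-KO 1 h and WT 8 h. Named genes were, per direction, the 5 with the smallest p past the threshold and a mean of at least 5 CPM in each comparison of single lines or of slopes, and list members passing over both lines or, with none, the 2 with the smallest p. Since 0 passed over both lines, genes with the smallest p there and list members called in Mettl3-KO were named after their values were seen. Members and lists were chosen with earlier results of these data known. Some genes are not reported here. RefSeq promoters and positions (GRCm38.p6, the patch release of mm10) matched 181 of 183 named genes.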

Additional observations from a re-analysis of the deposited data

Results flagged for a closer look

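The slope of total RNA on hours differed between Mettl3-KO and WT for 76 genes by the edgeR test of the difference itself, with Benjamini-Hochberg adjustment. Values are Mettl3-KO minus WT on the log2 scale over 8 h.

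Among the named genes with a higher slope in Mettl3-KO, growth and metabolism genes were Eif5a at 2.51, Mthfd2 at 2.21, Slc2a1 at 1.49, Acot7 at 1.73, Scd2 at 1.54, Dhcr7 at 2.62 and Atp5g3 at 1.63. A chaperone, Calr, was at 1.53. The others were Taf9 at 3.12, Cdk1 at 1.80, the pseudogene Rpl7-ps7 at 2.14 and Lef1 at 5.24. The WT level of Lef1 was at most 1.07 CPM, so its value rests on few WT reads.

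Those with a lower slope were Klhl24 at -2.49, Zbtb20 at -2.35, Pdcd4 at -2.13, Pink1 at -2.13, Nfatc4 at -2.76, Ankhd1 at -2.01, Cpt1a at -1.81, Hexa at -1.78, Mir6516 at -2.48 and Gm24507 at -2.52. In WT the last 2 were highest in 8 h replicate 2, the WT library that stood apart. No group held 4 libraries, so single libraries were not tested against their group.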

How the results depend on the processing

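DESeq2 called 231 genes over both lines, 46 in WT, 1547 in Mettl3-KO, 560 for the slope difference, 33 at 8 h against 0 h and 42 at any time. Without a count filter there were 78, 75, 1473, 630, 116 and 168, with 1 at 1 h and 4 at 3 h. With all 14 libraries the Mettl3-KO and difference counts were 0 and 0. On log2(hours + 1) the difference count was 23, and without TMM it was 113. Without the 0 h libraries 2 genes passed over both lines.

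Leaving out 1 library at a time gave 0 to 26 genes over both lines, 0 to 157 in WT, 0 to 1462 in Mettl3-KO, 0 to 288 for the difference, 0 to 3 at 8 h and 0 to 1 at any time, and 202 to 370 half-lives that differed. At a minimum of 20 conversion counts 158 did. Alternatives added after seeing the data gave 0 in Mettl3-KO without its 8 h libraries, 0 for the difference without all 8 h libraries, and 2221 to 0 in the layouts of WT. Without the Mettl3-KO 8 h libraries 7 genes reversed: Castor1 -0.9, Bnip3 -0.702, Upp1 -0.285, Lef1 -2.12, Pou3f1 -2.29, Sox3 -0.137 and Dnmt3a -0.0257. In WT without 8 h, Supt3 was at -1.35 and Cdkn1a at 1.53. These fits hold fewer libraries and a shorter time span, and otherwise the cause was not tested.

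With the replicate block 875 genes passed in Mettl3-KO, 57 for the difference, 0 over both lines and 0 in WT.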
